A study of Mus musculus with 17 samples.

Results

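A set of 10 imprinted genes that lie outside the DLK1/DIO3 domain was followed in mouse hepatocytes in which that domain had been edited. They were named by symbol as imprinted genes of other domains (Igf2r, Grb10, Cdkn1c, Gnas, Peg3, Mest, Peg10, Nap1l5, Impact and Plagl1), and each matched 1 of the 55536 gene identifiers in the files. WRE-edited hepatocytes carried SaCas9 edits, delivered by an AAV8 vector, at a site called WRE (condition DLK1DWRE in the labels), which lies ahead of the DLK1/DIO3 locus and is bound by β-catenin, and Rosa26-edited hepatocytes carried the same kind of construct aimed at Rosa26 (condition ROSA26), a common safe-harbour site. Both groups came from C57BL/6J mice of the ApcDHep genotype, in which the tumour suppressor Apc is deleted in the liver cells and β-catenin becomes active, so the Rosa26-edited hepatocytes carried that deletion too. All mice were 3 months old, had carried the vector for 1 month, and had received 2 mg tamoxifen and been kept for 7 days. Neither the driver of the Apc deletion nor the share of edited alleles is stated in the material used here, and no label ties a library to its own animal, so the p-values reflect library-to-library spread, which may be technical. RNA-seq held 6 WRE-edited and 5 Rosa26-edited libraries in 3 runs: r770 had 3 and 3, r595 had 1 and 2, and r711 had 2 WRE-edited libraries and no control. The names of WRE-edited 4 and 6 share an identifying number, so these 2 may come from the same animal; none of the 10 genes was called with them summed either.

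Totals were 20727036 to 38935135 expected counts per library. The share of mitochondrial ribosomal RNA was 2.29% to 2.995% in the 3 libraries of r595 and 19.02% to 29.09% in the other 8, which bears on TPM between runs. The 8 hepatocyte markers summed to 54164 to 58912 CPM (counts scaled to library size and between libraries) in WRE-edited libraries and 50312 to 60030 CPM in Rosa26-edited libraries. As a check of the edit, Rian, a non-coding RNA of the DLK1/DIO3 domain, averaged 74.4 ± 27.1 CPM in WRE-edited libraries (SD, n = 6) and 283 ± 97.7 CPM in Rosa26-edited libraries (SD, n = 5), with an edgeR adjusted p of 0.0188. Over 25 alternatives the log2 fold change of Rian lay between -2.45 and -1.85, but it passed in 13 of them, and the adjusted p was 0.317 without WRE-edited 6 and also above 0.05 without WRE-edited 2, 3, 4 or 5 or Rosa26-edited 2.

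Imprinted genes are expressed mainly from the allele of 1 parent. In most domains the choice is set by a stretch of DNA that is methylated in the egg or the sperm, and it is kept after fertilisation by the zinc finger protein ZFP57, which binds a short methylated motif. Many imprinted genes act on fetal growth and are strongly lowered in liver after birth. Igf2r, Grb10 and Cdkn1c are expressed mainly from the maternal allele, and Peg3, Mest, Peg10, Nap1l5, Impact and Plagl1 mainly from the paternal allele. Gnas gives several transcripts whose parental origin depends on the promoter and the tissue. The counts used here sum both alleles, so they give the output of a gene and not its parental origin.

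The promoter sequences show 2 features that the choice of genes did not use, the density of CpG and the ZFP57 motif. RefSeq promoters of GRCm38.p6, 250 bases before to 50 bases after the start, were used for 7 of the 10 genes, 13 promoters in all. No promoter was available for Cdkn1c or Peg10, and Impact was not included, so the shares below leave these genes out. Their median was 17 CpG, against 7 over the 32851 promoters of the table, and the highest was 45 at a Grb10 start. The letters TGCCGC, searched on both strands, were present in 5 of the 13 promoters and in 11.6% of all promoters. The motif itself holds a CpG, and the median CpG count over all promoters was lower than over these, so the 2 shares are not a like comparison. The 5 belonged to Grb10, Mest, Nap1l5 and Plagl1, and 2 of them were Mest windows that nearly coincide. Among the 13, 2 Gnas windows without a match also nearly coincide. The letters CTTTGAT, a core recognised by the TCF partners of β-catenin, were in 0 of the 13 and in 3.73% of all promoters, on both strands and without overlap with the other motif. The starts of Mest and the start of Plagl1 are shown because the counts of these genes sum over transcripts from different starts; capitals mark TGCCGC or its reverse complement.
Mest upstream start, chr6:30733256-30733555, + strand: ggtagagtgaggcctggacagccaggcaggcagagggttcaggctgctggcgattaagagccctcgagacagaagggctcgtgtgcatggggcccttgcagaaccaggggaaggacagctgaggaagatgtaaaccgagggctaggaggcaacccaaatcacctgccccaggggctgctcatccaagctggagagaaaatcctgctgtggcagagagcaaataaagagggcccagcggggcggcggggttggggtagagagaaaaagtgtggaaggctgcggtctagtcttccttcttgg
Mest downstream start, chr6:30737800-30738099, + strand: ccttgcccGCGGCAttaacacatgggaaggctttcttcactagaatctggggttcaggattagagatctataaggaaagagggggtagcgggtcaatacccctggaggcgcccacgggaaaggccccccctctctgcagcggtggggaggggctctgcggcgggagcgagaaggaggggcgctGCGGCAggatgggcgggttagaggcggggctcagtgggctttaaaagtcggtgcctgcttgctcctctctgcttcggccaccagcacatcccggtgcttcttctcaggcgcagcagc
Plagl1 start, chr10:13090582-13090881, + strand: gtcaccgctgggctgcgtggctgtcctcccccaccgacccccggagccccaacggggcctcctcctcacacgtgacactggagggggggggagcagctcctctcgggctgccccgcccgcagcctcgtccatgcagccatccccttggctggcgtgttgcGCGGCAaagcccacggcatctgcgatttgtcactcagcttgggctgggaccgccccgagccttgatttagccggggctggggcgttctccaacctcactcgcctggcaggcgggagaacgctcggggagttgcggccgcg
The upstream Mest window held 8 CpG and 0 matches, the downstream one 17 CpG and 2 matches, and the Plagl1 window 26 CpG and 1 match.

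The comparison asked whether imprinted genes elsewhere moved when the DLK1/DIO3 domain was edited. No change was called: with the run as a term, 0 of the 8 measured genes passed at an adjusted p under 0.05 in edgeR, and 0 in DESeq2. Over all 14393 genes tested, 0.00695% were called in edgeR and 0.563% in DESeq2. One of the 8, Gnas, was at an unadjusted p under 0.05, where 10.1% of all genes tested were. Log2 fold changes of WRE-edited against Rosa26-edited libraries were between -0.39 and 0.46, with a median absolute value of 0.19, equal at this precision to the 0.19 over all genes tested. Of the 8, 3 were above 0 and 5 below, and 51.7% of all genes tested were above 0. WRE-edited and Rosa26-edited libraries overlapped in all 8, both over all libraries and within r770. Groups that do not overlap were found in 0.375% of genes over all libraries and in 7.64% within r770.

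The intervals bound how far these genes could have followed the edited domain. The lowest end of a 95% interval was -0.97, for Mest, while Rian, Meg3, Mirg and Rtl1 of the edited domain had log2 fold changes from -2.46 to -2.23. The 95% interval of each of the 8 genes therefore lay above the point estimates of these 4 transcripts. The 95% intervals of the 4 transcripts reached up to -1.22. Of the 4, only Rian passed in edgeR, with adjusted p of 0.266 for Meg3, 0.281 for Mirg and 0.213 for Rtl1. The highest end among the 8 genes was 1.23, for Peg10.

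**Figure D1:**
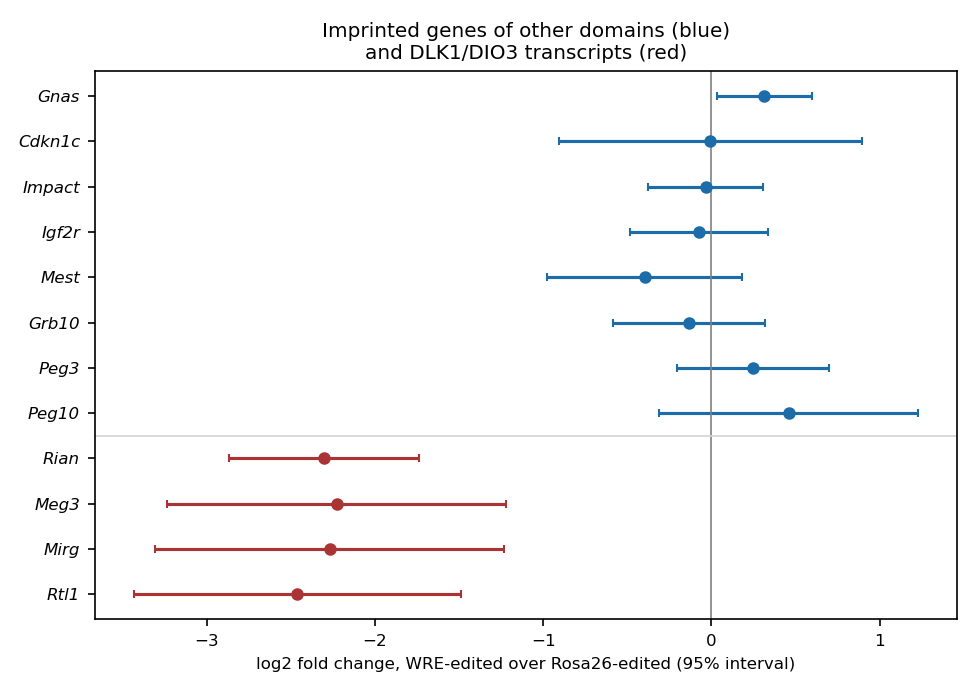
Log2 fold change of WRE-edited over Rosa26-edited libraries (horizontal axis) with its 95% interval, for the 8 measured imprinted genes of other domains (blue) and 4 transcripts of the edited DLK1/DIO3 domain (red). The blue points lie between -0.39 and 0.46 and the red points between -2.46 and -2.23.

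Among the maternally expressed genes, Igf2r encodes the receptor that carries mannose 6-phosphate enzymes to lysosomes and takes up and degrades the growth factor IGF2. It lies at chr17:12682406-12769706 of GRCm38.p6. In r770 it had 127, 127 and 79.9 CPM in WRE-edited libraries 1, 2 and 3 against 118, 74.8 and 134 CPM in Rosa26-edited libraries 1, 2 and 3. In r595 it had 114 CPM in WRE-edited 6 against 136 and 146 CPM in Rosa26-edited 4 and 5, and the r711 libraries WRE-edited 4 and 5 had 142 and 129 CPM. WRE-edited 3 and Rosa26-edited 2 were the low libraries, 1 in each group. Its log2 fold change was -0.07 ± 0.19 (SE; 95% interval -0.49 to 0.34, edgeR adjusted p = 0.896), and -0.23 without Rosa26-edited 2 and 0.036 without WRE-edited 3.

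Grb10 encodes an adaptor that binds the insulin and IGF1 receptors and restrains their signalling, and lies at chr11:11930499-12037428. It was low, at 2.14 to 3.11 CPM in WRE-edited libraries (median 2.73) against 2.29 to 3.81 CPM in Rosa26-edited libraries (median 2.86). All values fell within a narrow band, with the highest in Rosa26-edited 2. Its log2 fold change was -0.13 ± 0.21 (95% interval -0.58 to 0.32, edgeR adjusted p = 0.828), and it was -0.048 without WRE-edited 3, -0.31 without WRE-edited 6 and -0.028 without Rosa26-edited 2.

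Cdkn1c, which encodes the cyclin-dependent kinase inhibitor p57 and holds back the cell cycle in the embryo, lies at chr7:143458339-143461059 and was the most variable of the 8. In r770 it had 14.6, 13.6 and 31.6 CPM in WRE-edited 1, 2 and 3 against 28.6, 22.5 and 21.98 CPM in Rosa26-edited 1, 2 and 3. In r595 it had 46.6 CPM in WRE-edited 6 against 47.9 and 13.9 CPM in Rosa26-edited 4 and 5, and WRE-edited 4 and 5 of r711 had 19.6 and 9.25 CPM. Each group held low and high libraries. The log2 fold change was -0.01 ± 0.40 (95% interval -0.91 to 0.89, edgeR adjusted p = 0.996), with differences of -0.39 within r770 and 0.85 within r595. With the replicate number as a block in place of the run, Cdkn1c had -0.62 (unadjusted p = 0.0319, edgeR adjusted p = 0.903). That block sets WRE-edited 4 and 5 of r711 beside Rosa26-edited 4 and 5 of r595, so group and run are mixed in it. With the run as a term, the value was -0.25 without WRE-edited 3, -0.29 without WRE-edited 6 and 0.20 without Rosa26-edited 4. It was also above 0 without WRE-edited 1, WRE-edited 2, Rosa26-edited 1 or Rosa26-edited 2.

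Gnas, the gene of the G protein subunit that couples hormone receptors such as the glucagon receptor to adenylyl cyclase, lies at chr2:174284320-174346744. In r770 it had 146, 172 and 206 CPM in WRE-edited 1, 2 and 3 against 137, 153 and 167 CPM in Rosa26-edited 1, 2 and 3. In r595 it had 231 CPM in WRE-edited 6 against 158 and 153 CPM in Rosa26-edited 4 and 5, while WRE-edited 4 and 5 of r711 had 152 and 146 CPM. WRE-edited 2, 3 and 6 lay above every Rosa26-edited library, and the other 3 WRE-edited libraries lay within their range. The log2 fold change was 0.31 ± 0.13 (95% interval 0.03 to 0.60, unadjusted p = 0.0323, edgeR adjusted p = 0.460), 0.19 within r770 and 0.57 within r595. An unadjusted p under 0.05 was lost in 12 of 25 alternatives. The value was 0.20 without WRE-edited 6 and 0.19 without the run term. It was 0.09 with the replicate number as a block in place of the run, which mixes group with run as described for Cdkn1c.

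**Figure D2:**
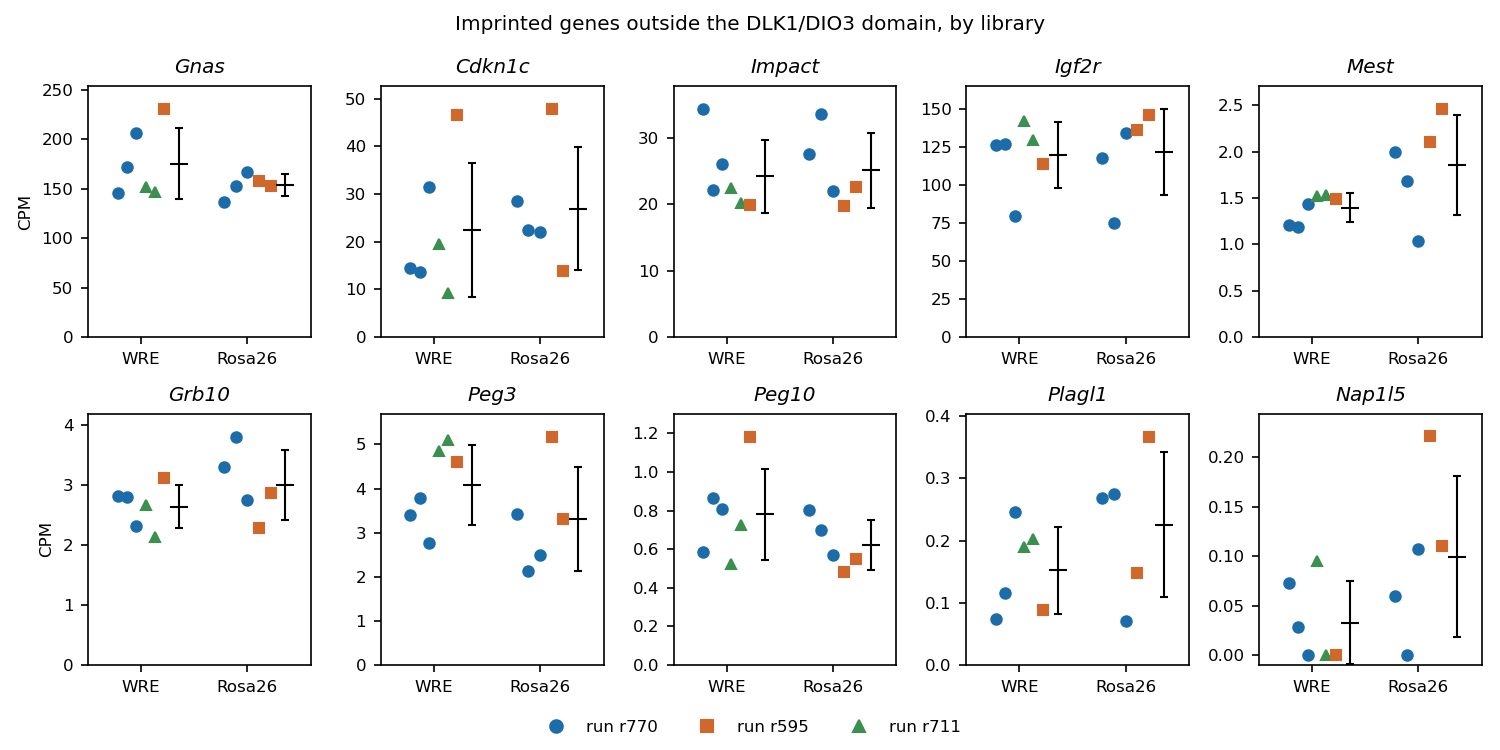
CPM (vertical axis, own scale per panel) of the 10 imprinted genes in each WRE-edited and Rosa26-edited library, ordered by deposited TPM; colours and shapes give the run, and bars the mean and SD of each group (n = 6 and 5). The groups overlap in each panel, and in the Gnas panel WRE-edited 3 and 6, at 206 and 231 CPM, stand above the rest.

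Among the paternally expressed genes, Mest encodes a protein of the α/β hydrolase fold and lies at chr6:30733506-30748466. In r770 it had 1.21, 1.19 and 1.44 CPM in WRE-edited 1, 2 and 3 against 1.99, 1.68 and 1.03 CPM in Rosa26-edited 1, 2 and 3. In r595 it had 1.49 CPM in WRE-edited 6 against 2.11 and 2.46 CPM in Rosa26-edited 4 and 5, and WRE-edited 4 and 5 of r711 had 1.52 and 1.54 CPM. All 6 WRE-edited libraries were below 4 of the 5 Rosa26-edited libraries and above Rosa26-edited 3. The log2 fold change was -0.39 ± 0.27 (95% interval -0.97 to 0.18, edgeR adjusted p = 0.607), and it was -0.02 once the effective length of the gene in each library was taken into account. That length was estimated from 29.1 to 67.2 counts spread over 11 annotated transcripts, and ranged from 842 to 2389 bases, so the adjusted value is itself uncertain.

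In the same libraries the 9 markers of stellate cells and fibroblasts were all below 0, with a median log2 fold change of -0.62 and summed levels of 40.9 to 106.66 CPM in WRE-edited against 73.4 to 103.89 CPM in Rosa26-edited libraries. The 7 macrophage markers were all below 0 as well, with a median of -0.44 and sums of 338 to 460.1 CPM against 306 to 1057 CPM. The highest sum was in Rosa26-edited 5, where Marco had 370 CPM against 11.2 to 32.9 CPM in WRE-edited libraries. Marco was not the sole high marker, nor Rosa26-edited 5 the sole high library. Cd5l had 378 CPM in Rosa26-edited 5 and 334.5 CPM in Rosa26-edited 2, against 142 to 193 CPM in WRE-edited libraries. In Rosa26-edited 1, 3 and 4 it had 190, 124 and 154 CPM. The 8 endothelial markers had 7 below 0, a median of -0.23, and sums of 114 to 182 CPM against 121 to 184 CPM. The 3 measured neutrophil markers of 5 were all below 0, with a median of -0.69 and sums of 3.2 to 5.93 CPM against 2.43 to 18.8 CPM. Of 4 measured erythroid markers of 5, 3 were below 0, with a median of -1.25 and 1 lower call in DESeq2. At an unadjusted p under 0.05 in edgeR, 2 were lower and 1, Alas2, was higher, at 0.45 ± 0.19. The erythroid sums were 7.83 to 10.8 CPM against 6.75 to 24.9 CPM. Rosa26-edited 2 alone gave the highest neutrophil and erythroid sums. No gene of these 5 lists passed in edgeR, and 3 stellate markers were lower at an unadjusted p under 0.05. Every marker in them had a count in at least 1 library, though Ly6g had at most 2 in any. Of 6 cholangiocyte markers 2 were measured, Sox9 at 0.92 (unadjusted p = 0.0180, edgeR adjusted p = 0.441) and Spp1 at -1.02. The 1 measured lymphocyte marker of 6 was at -0.43. The part of these cell types in the level of Mest or of the other imprinted genes was not tested. In bulk libraries, fewer cells of a type and less RNA per cell cannot be told apart.

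Peg3 encodes a large zinc finger protein and lies at chr7:6703892-6730462. It had 2.77 to 5.09 CPM in WRE-edited libraries (median 4.20) against 2.14 to 5.18 CPM in Rosa26-edited libraries (median 3.31), with the highest value in Rosa26-edited 4. The log2 fold change was 0.25 ± 0.21 (95% interval -0.20 to 0.70, edgeR adjusted p = 0.682), and 0.45 with effective lengths taken into account, 0.38 without Rosa26-edited 1 and 0.15 without Rosa26-edited 2. Peg10, a gag-like gene derived from a retrotransposon as Rtl1 of the edited domain is, lies at chr6:4747306-4760517. It had 0.586, 0.868 and 0.806 CPM in WRE-edited 1, 2 and 3 against 0.803, 0.702 and 0.571 CPM in Rosa26-edited 1, 2 and 3, all in r770. WRE-edited 6 of r595 was the highest library, at 1.18 CPM against 0.481 and 0.551 CPM in Rosa26-edited 4 and 5, and WRE-edited 4 and 5 of r711 had 0.523 and 0.727 CPM. The log2 fold change of Peg10 was 0.46 ± 0.35 (95% interval -0.31 to 1.23, edgeR adjusted p = 0.654), and 0.12 without WRE-edited 6.

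Impact, which encodes an inhibitor of the amino acid sensing kinase GCN2, had 19.9 to 34.4 CPM in WRE-edited libraries (median 22.3) against 19.7 to 33.6 CPM in Rosa26-edited libraries (median 22.6). The ranges nearly coincided. Its log2 fold change was -0.03 ± 0.16 (95% interval -0.38 to 0.31, edgeR adjusted p = 0.949; -0.16 without WRE-edited 1 and 0.0696 without Rosa26-edited 2), the second narrowest interval of the 8 after Gnas.

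Nap1l5 and Plagl1 were below the filter on low counts and were not tested. Nap1l5, of the nucleosome assembly protein family, lies at chr6:58905233-58907126 and had 5 counts summed over the WRE-edited libraries against 14 over the Rosa26-edited ones. It was at 0 counts in WRE-edited 3, 5 and 6 and in Rosa26-edited 2, which allows up to 3 counts, or 0.0915 to 0.132 CPM in these libraries. Plagl1, a zinc finger transcription factor gene at chr10:13090832-13131694, had 24 counts summed over the WRE-edited libraries against 34 over the Rosa26-edited ones, with 2 to 10 in any library. A change of either gene was not detectable at this depth.

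Per length, in the deposited TPM (transcript abundance scaled to the library total), Gnas was the highest of the 10 in all 11 libraries, at 77.0 ± 14.5 TPM in WRE-edited (SD, n = 6) and 72.4 ± 16.7 TPM in Rosa26-edited libraries (SD, n = 5). Cdkn1c (11.5 ± 7.17 and 16.5 ± 11.2 TPM), Impact (10.3 ± 1.79 and 11.3 ± 2.81 TPM) and Igf2r (9.77 ± 3.2 and 10.7 ± 4.17 TPM) came next, and their ranges overlapped. Mest, Grb10 and Peg3 formed a lower step, at 0.14 to 1.12 TPM in any library, again with overlapping ranges. Peg10, Plagl1 and Nap1l5 were at 0.19 TPM or less. The ranges did not overlap between Gnas and Cdkn1c, between Igf2r and Mest, or between Peg3 and Peg10, and the genes on each side of these gaps kept their order in 11 of 11 libraries.

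The effect of the edit was set side by side in the 2 runs that held both groups. An interaction of run and group passed for 0 of the 8 genes and for 0.0% of 14582 genes in edgeR, with 0 of the 8 and 6.52% of all genes at an unadjusted p under 0.05. The estimates differed by 1.07 ± 0.73 for Peg10, 0.88 ± 0.82 for Cdkn1c and 0.58 ± 0.45 for Grb10 (r595 minus r770, log2), with unadjusted p of 0.174, 0.311 and 0.219 in edgeR. WRE-edited 6 was the lone WRE-edited library of r595 and was assumed to vary like the others.

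The effective length of a gene, the mean length in bases of its transcripts weighted by their estimated abundance, is a separate readout of the same libraries. It was near constant for Gnas (1510 to 1570 bases) and Peg10 (6395 to 6507 bases). It varied between libraries 1.79-fold for Grb10, 2.84-fold for Mest and 3.03-fold for Peg3, against a median of 1.27-fold over all genes tested. Counts in a library were few, at 53 to 125 for Grb10, 29.1 to 67.2 for Mest and 70 to 140 for Peg3. Plagl1, which has 25 annotated transcripts, varied 6.87-fold. In r770 its effective length was 937, 917 and 745 bases in WRE-edited 1, 2 and 3 against 4519, 4798 and 5106 bases in Rosa26-edited 1, 2 and 3. In r711 it was 1383 and 915 bases in WRE-edited 4 and 5. In r595 it was 5121 bases in WRE-edited 6 against 5006 and 5120 bases in Rosa26-edited 4 and 5. Of the 6 WRE-edited libraries, 5 were thus below all 5 Rosa26-edited libraries and WRE-edited 6 was above them.

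These lengths rest on 2 to 10 reads of Plagl1 in a library. The log2 difference was -1.71, with p = 0.0833 in a two-sided exact permutation test within runs and 0.667 adjusted over the 10 genes, where the smallest p that the 60 assignments allow is 0.0167. None of the 10 genes passed that test, and the adjusted values were 0.667 to 0.900. For Plagl1 the 2 scales point in opposite directions: it averaged 0.152 ± 0.0698 CPM in WRE-edited and 0.226 ± 0.116 CPM in Rosa26-edited libraries, but 0.103 ± 0.0709 TPM and 0.0340 ± 0.0182 TPM on the scale per length (SD, n = 6 and 5).

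**Figure D3:**
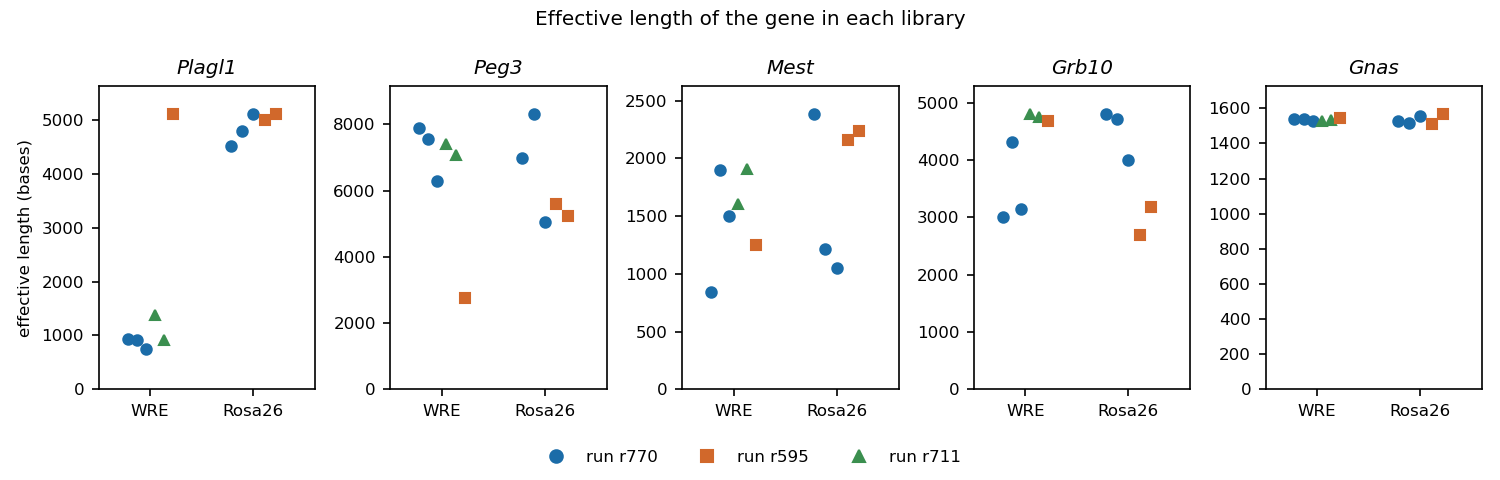
Effective length in bases (vertical axis, from 0) of 5 imprinted genes in each WRE-edited and Rosa26-edited library; colours and shapes give the run. Plagl1 is at 745 to 1383 bases in 5 WRE-edited libraries, with WRE-edited 6 at 5121 bases beside the Rosa26-edited libraries at 4519 to 5120 bases, while Gnas stays within 1510 to 1570 bases.

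The measured non-coding RNAs of other imprinted domains did not pass either, while H19 and Nespas were below the filter. Of 6 listed, 4 were measured and 0 passed in edgeR, with 1 lower at an unadjusted p under 0.05, where 5.14% of all genes tested were. Kcnq1ot1, the paternal transcript that silences the domain of Cdkn1c, had 45.9, 47.8 and 17.2 CPM in WRE-edited 1, 2 and 3 against 35.0, 17.1 and 46.0 CPM in Rosa26-edited 1, 2 and 3 of r770. In r595 it had 14.1 CPM in WRE-edited 6 against 98.2 and 60.3 CPM in Rosa26-edited 4 and 5, and WRE-edited 4 and 5 of r711 had 69.6 and 65.4 CPM. WRE-edited 3 and 6 and Rosa26-edited 2 were the 3 lowest libraries for Kcnq1ot1. The same 3 were lowest for Igf2r, at 79.9, 114 and 74.8 CPM, with Rosa26-edited 1 next at 118 CPM. The log2 fold change of Kcnq1ot1 was -0.48 ± 0.58 (edgeR adjusted p = 0.781), with 0.15 within r770, -2.44 within r595, 0.18 without WRE-edited 6 and -0.87 without Rosa26-edited 2.

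Airn, the transcript that silences Igf2r on the paternal allele, had 2.75, 1.01 and 2.03 CPM in WRE-edited 1, 2 and 3 against 1.93, 1.22 and 1.36 CPM in Rosa26-edited 1, 2 and 3, and 2.24 CPM in WRE-edited 6 against 7.88 and 5.73 CPM in Rosa26-edited 4 and 5. WRE-edited 4 and 5 of r711 had 4.66 and 3.51 CPM of Airn. Its log2 fold change was -0.21 ± 0.41 (edgeR adjusted p = 0.861), 0.27 within r770, -1.56 within r595, 0.35 without WRE-edited 6 and -0.55 without WRE-edited 1. Peg13 had -0.09 ± 0.23 (edgeR adjusted p = 0.893), and 0.12 without WRE-edited 6 and 0.01 without Rosa26-edited 3. These 3 genes were named after their values were seen.

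Snhg14, the long paternal host transcript of the Snrpn domain that runs antisense to Ube3a, had 1.32, 0.781 and 0.281 CPM in WRE-edited 1, 2 and 3 against 2.14, 1.098 and 2.07 CPM in Rosa26-edited 1, 2 and 3, and 0.438 CPM in WRE-edited 6 against 3.03 and 1.36 CPM in Rosa26-edited 4 and 5. WRE-edited 3 and 6 were again the lowest, and WRE-edited 4 and 5 of r711, at 1.57 and 2.10 CPM, lay within the Rosa26-edited range. Its log2 fold change was -1.46 ± 0.47 (unadjusted p = 0.00847, edgeR adjusted p = 0.423), -1.24 within r770 and -2.05 within r595. It was called when every gene with a count was kept (log2 fold change -1.46) and in 0 of the other 24 alternatives. No source used here states how strand was handled in counting, so reads of Snhg14 and of Ube3a, which had -0.42 ± 0.19 (edgeR adjusted p = 0.490) and -0.25 without WRE-edited 3, cannot be told apart where they overlap.

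**Figure D4:**
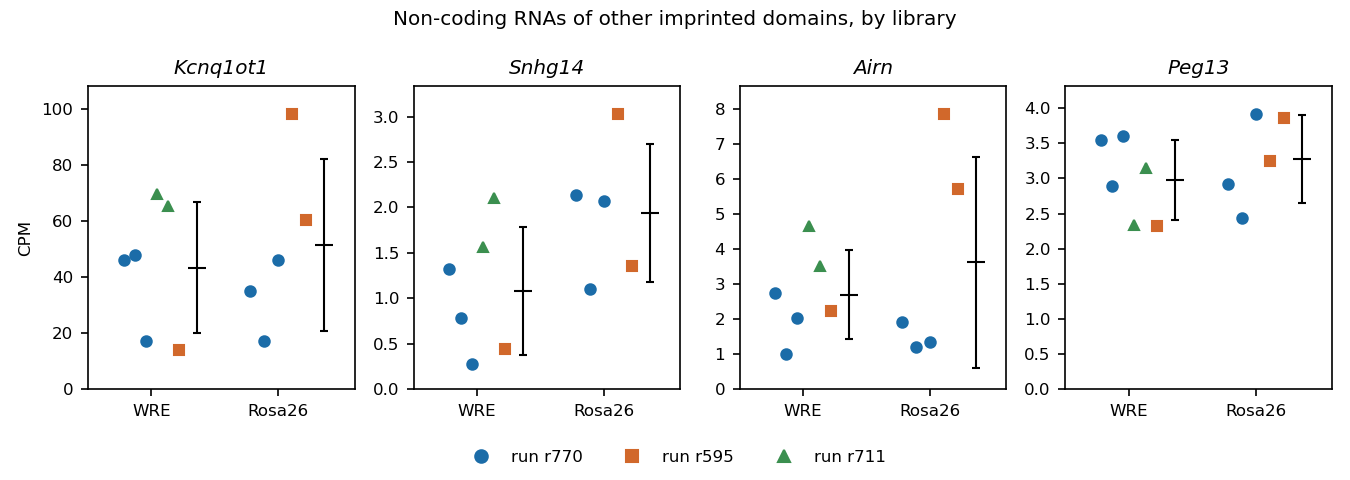
CPM (vertical axis, from 0) of 4 non-coding RNAs of other imprinted domains in each WRE-edited and Rosa26-edited library; colours and shapes give the run, and bars the mean and SD of each group (n = 6 and 5). WRE-edited 6 lies below both Rosa26-edited libraries of run r595 in all 4 panels, and the groups overlap over all libraries.

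The wider list held 62 genes of the same and other imprinted domains, of which 37 were measured and 0 passed in edgeR or DESeq2. Of the 37, 14 had log2 fold changes above 0 and 23 below, with a median of -0.07 beside 0.01 over all genes tested. At an unadjusted p under 0.05, 1 was higher and 3 were lower, where 4.95% and 5.14% of all genes tested were. The higher one was Zrsr1, a splicing factor gene, at 0.48 ± 0.18 (edgeR adjusted p = 0.441), and the lower ones were Snhg14, Ube3a and the phosphoinositide phosphatase gene Inpp5f at -0.26 ± 0.11 (edgeR adjusted p = 0.463). Of 25 alternatives, an unadjusted p under 0.05 was lost in 7 for Zrsr1 (0.32 without WRE-edited 6), 4 for Snhg14, 20 for Ube3a and 15 for Inpp5f.

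Neighbours of the 10 genes were counted by domain, and 0 were called. In the Kcnq1ot1 domain around Cdkn1c 8 of 11 genes were measured, with 2 above 0 and a median of -0.16. In the Peg10 domain 8 of 10 were measured, with 2 above 0 and a median of -0.10. In the Igf2r domain 3 of 5 were measured, with 1 above 0 and a median of -0.21. None of the 5 neighbours of Peg3 was measured. The fetal growth factor gene Igf2 had 6 counts summed over the WRE-edited libraries against 6 over the Rosa26-edited ones, and H19, the non-coding RNA beside it, had 34 and 34, all below the filter.

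**Figure D5:**
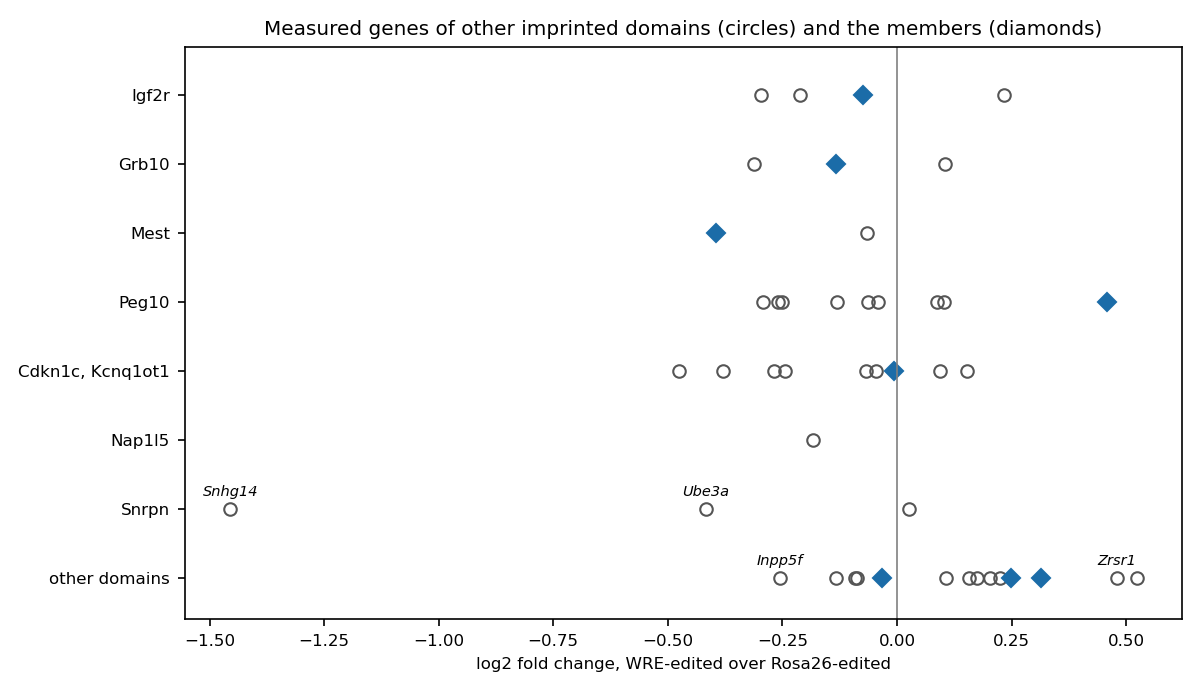
Log2 fold change of WRE-edited over Rosa26-edited libraries (horizontal axis) of 37 measured genes of other imprinted domains (circles) and the 8 measured genes described above (diamonds), by domain (vertical axis); Gnas, Peg3 and Impact, which have no measured neighbour here, are drawn with the other domains. Names mark the 4 circles at an unadjusted p under 0.05, from Snhg14 at -1.46 to Zrsr1 at 0.48.

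Genes that work with the 10 were described from fixed lists. Of 13 measured genes of insulin and IGF signalling, in which Igf2r and Grb10 act, 11 were above 0 with a median of 0.23, and 1, the kinase gene Akt2 at 0.31 ± 0.12 (edgeR adjusted p = 0.447), was higher at an unadjusted p under 0.05, where 4.95% of all genes tested were. That level was lost for Akt2 in 10 of 25 alternatives, and its value was 0.18 without WRE-edited 6. Of 11 genes of mannose 6-phosphate sorting, 8 were above 0 with a median of 0.04, and 1, Nagpa, which uncovers the mannose 6-phosphate tag, was higher at that level at 0.38 ± 0.14 (edgeR adjusted p = 0.441). Of 13 genes of Gs and cAMP signalling, in which Gnas acts, 10 were above 0 with a median of 0.07. The adenylyl cyclase gene Adcy6 was the 1 higher at that level, at 0.47 ± 0.20 (edgeR adjusted p = 0.463). With effective lengths taken into account Nagpa had 0.18 and Adcy6 0.29, and the level was lost in 9 and 11 of 25 alternatives.

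Of 6 measured genes of the GCN2 arm, which Impact inhibits, 3 were above 0 with a median of -0.02. Asns, the asparagine synthetase gene that this arm induces, had 1.61, 4.97 and 8.98 CPM in WRE-edited 1, 2 and 3 against 2.26, 2.14 and 2.10 CPM in Rosa26-edited 1, 2 and 3, and 9.16 CPM in WRE-edited 6 against 1.70 and 2.39 CPM in Rosa26-edited 4 and 5. WRE-edited 4 and 5 of r711 had 1.76 and 3.84 CPM of Asns. It was high in WRE-edited 2, 3, 5 and 6 and within or below the Rosa26-edited range in WRE-edited 1 and 4. Its log2 fold change was 1.55 ± 0.41 (edgeR adjusted p = 0.384). DESeq2 called it (adjusted p = 0.0325), while it had 0.97 with effective lengths taken into account, 0.75 from the normalized signal (unadjusted p = 0.176 in limma) and 0.74 with the replicate block in place of the run. Of 4 other measured cyclin-dependent kinase inhibitor genes, 3 were above 0 with a median of 0.11, and 0 were at an unadjusted p under 0.05 (0 calls in DESeq2). Of 3 measured gag genes related to Peg10, 1 was lower at an unadjusted p under 0.05, Rtl1 of the edited domain. DESeq2 called Rtl1 and edgeR did not (adjusted p = 0.213).

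MicroRNAs made from other imprinted domains gave a readout in separate libraries, 3 WRE-edited and 3 Rosa26-edited, with totals of 1393509 to 2011383 counts. In all 4 such miRNAs were found, 2 within the span of Mest and 2 within the Nespas transcript of the Gnas domain, and their RefSeq mature sequences are shown with the seed (bases 2 to 8) in capitals; no 2 of them share a seed.
mmu-miR-335-5p: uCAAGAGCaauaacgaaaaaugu
mmu-miR-335-3p: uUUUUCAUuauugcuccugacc
mmu-miR-296-3p: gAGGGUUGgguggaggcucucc
mmu-miR-298-5p: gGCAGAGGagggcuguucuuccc
The 2 arms from Mest lie on the + strand at chr6:30741314-30741336 and chr6:30741354-30741375, and the other 2 on the - strand at chr2:174267058-174267079 and chr2:174267553-174267575.

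The 5p arm of miR-335 had 86.2, 66.4 and 57.7 CPM in the WRE-edited libraries against 64.4, 54.5 and 42.5 CPM in the Rosa26-edited libraries. The groups overlapped, with a log2 fold change of 0.38 ± 0.29 (95% interval -0.27 to 1.02, edgeR adjusted p = 0.864), and 0.57 without Rosa26-edited 1 and 0.24 without Rosa26-edited 3 of the miRNA libraries. The 3p arm had 0.47 ± 0.38 (95% interval -0.37 to 1.32, edgeR adjusted p = 0.878), and 0.93 without Rosa26-edited 1 and 0.27 without Rosa26-edited 2. In edgeR 0 of the 355 miRNAs tested were called, 0.0%, with 11% at an unadjusted p under 0.05, and DESeq2 called 2.25%. Names of some miRNA libraries carry the same identifiers as the RNA-seq libraries WRE-edited 4, 5 and 6 and Rosa26-edited 4 and 5, so these may come from the same animals; the levels of Mest and miR-335 were not paired here.

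The pair from the Gnas domain was below the filter and rests on few counts. The 3p arm of miR-296 had 10, 16 and 11 counts in WRE-edited libraries against 1, 8 and 0 counts in Rosa26-edited libraries, and the 5p arm of miR-298 had 9, 7 and 11 counts against 4, 4 and 2. For both, every WRE-edited library lay above every Rosa26-edited library in CPM, as groups did not overlap for 13% of all 476 miRNAs. For miR-296 this was nearly a tie, at 4.76 CPM in WRE-edited 1 against 4.74 CPM in Rosa26-edited 2 of the miRNA libraries. Fitted without a filter, they had log2 fold changes of 1.89 ± 0.82 and 1.29 ± 0.63, with edgeR adjusted p of 0.467 and 0.565.

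Likeness of pattern was measured as Pearson's r of log2 CPM, centred within each run, over the 11 libraries among 12231 genes with a mean of at least 1 CPM. It is a description, since the points share their libraries and depth. The genes most like Gnas were Smap2 (r = 0.985), Phb2 (r = 0.984) and Cltb (r = 0.982). Those most like Mest were Ssr3 (r = 0.916), Il1a (r = 0.911) and Agfg1 (r = 0.911), and those most like Peg10 were Acot12 (r = 0.961), Osbpl1a (r = 0.934) and Cchcr1 (r = 0.917).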

How the data were processed

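The authors deposited expected counts, TPM and effective lengths per Ensembl gene for each library, per the file headers. The submitters' processing notes name RSEM 1.3.1, STAR 2.7.6a and the build GRCm38. The deposited normalized signal is attributed to DESeq2 (version 1.26.0, R 3.6.3) from those notes, and was used as an alternative alone. The deposited miRNA counts are whole numbers per mature miRNA, and no source used here names their aligner. Effective length is a value of the other kind, in bases, per the file headers.

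Of 55536 gene identifiers, 55450 matched a symbol, and all 10 genes did. The gene and list choices were made with earlier results of these data known. Expected counts were rounded and tested with edgeR 4.0.16 in R 4.3.3 (filterByExpr by group needing 10 counts, total at least 15; TMM scaling, robust quasi-likelihood fit, run and group as terms, two-sided), with Benjamini-Hochberg adjustment over all 14393 genes tested, with a threshold of 0.05. The 2 libraries of r711 added to the spread alone, and 7 residual degrees of freedom remained. Standard errors and 95% intervals came from the quasi-likelihood statistic. CPM used TMM factors. Group means of CPM include r711, so a fold change can differ from their ratio. miRNA counts were tested with the group as the sole term. Effective lengths were compared on the log2 scale with exact permutation within runs.

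The rule for named genes took all 10, up to 4 genes a list with the smallest unadjusted p (the text gives those under 0.05), 4 transcripts of the edited domain, 3 genes most like each of the 3 with the smallest p, and hosted miRNAs. Alternatives used DESeq2 1.42.0 and limma 3.58.1 (log2 CPM with prior count 2, or log2 of the normalized signal plus 1). The fit was tested on simulated counts. Floors and depth cover counting error alone.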

Additional observations from a re-analysis of the deposited data

Results flagged for a closer look

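Each group of 10 genes was examined for a library that stood far from the rest of its group, in CPM and in effective length, 40 groups of values in all, of which chance marks about 1 in 20. In all 2 were marked, as many as that rate gives, both in WRE-edited 6, the single WRE-edited library of r595. The effective length of Plagl1 was 5121 bases there, from 2 counts, against 745 to 1383 bases in the other 5 WRE-edited libraries. The effective length of Peg3 was 2744 bases there, against 6302 to 7891 bases in the other 5.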

How the results depend on the processing

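The 8 measured genes were refitted under 25 alternatives, which gave 199 values, since Peg10 fell below the stricter filter of 1 CPM in 5 libraries. None of the 199 passed an adjusted p under 0.05, and 17 changed sign. The number of the 10 genes called was 0 throughout, as was the number with a called interaction, effective length or hosted miRNA.

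Sign changes were these. Igf2r had 0.0395 with r770 only and 0.0398 with a replicate block and the run term, Impact had 0.0018 with r770 only, 0.073 with effective lengths as offsets, 0.00026 with a replicate block in place of the run and 0.075 from the normalized signal, and leaving out 1 library gave -0.23 to 0.036 for Igf2r, -0.16 to 0.0696 for Impact and -0.29 to 0.20 for Cdkn1c. With r770 only, Kcnq1ot1 had 0.19, Airn 0.36 and Peg13 0.13. With a replicate block and the run term they had 0.17, 0.29 and 0.14, and leaving out 1 library gave -0.87 to 0.18, -0.55 to 0.35 and -0.22 to 0.12. With a replicate block in place of the run Kcnq1ot1 had 0.013, Zrsr1 -0.028 and Akt2 -0.015. The effective length difference was 0.12 for Peg3 and -0.0035 for Cdkn1c with r770 only, and leaving out 1 library gave -0.40 to 0.12 for Peg3, -0.38 to 0.0598 for Grb10, -0.0039 to 0.0712 for Cdkn1c and -0.0051 to 0.0092 for Gnas. The cause was not tested.

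Over all genes the fit called 1, and 81 with DESeq2, 450 without a filter, 2 with a replicate block and the run term, 0 without the run term, 0 with r770 only, 0 without r711, 0 from the normalized signal, 0 with limma on log2 CPM, and 0 to 2 without 1 library. Of the related lists, with Rtl1 of the edited domain left out, 0 genes were called, but 1 (Asns) with DESeq2 and 2 (Asns and Snhg14) without a filter. Of 9 neighbouring pairs in the order of TPM, 3 held in every library, and 3 to 4 with 1 library left out. Same-numbered libraries of r770 had correlations of 0.09, -0.25 and -0.10, so the numbers were not used as pairs in the main fit. In the alternatives with a replicate block in place of the run, group and run are mixed for replicates 4 and 5. Library names of WRE-edited 4 and 6 share an identifying number; summed, with no run term, Gnas had 0.16 and Cdkn1c -0.40. Depth limits Nap1l5 and Plagl1.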
